A study of Lepidium sativum with 30 samples.

Results

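Whole garden cress seeds (Lepidium sativum FR14) imbibed for 12 h with 0.5 mM myrigalone A (MyA), a phytotoxic dihydrochalcone from sweet gale, were set against control seeds imbibed for 6 h with the solvent DMSO alone. The members were chosen by label: the 5 MyA 12 h libraries and the 5 control 6 h libraries, 10 of the 30 libraries in the series. The 5 control 12 h libraries (DMSO) served to mark the path from 6 h to 12 h, and MyA 6 h, MyA 18 h and dry seed libraries, 5 each, were used only as points of orientation. All seeds were kept at 20 °C in light, each library was made from poly(A) RNA of pooled seeds, and the libraries are described as biological replicates, but the sources do not say whether they were made from different seed lots, so that the spread behind each p may be technical. By the study's germination curves endosperm rupture sets in at 12 h without MyA and only at 18 h with it, so that both groups compared were sampled before rupture. Treatment and time both differ between MyA 12 h and control 6 h, and in this comparison alone they cannot be told apart.

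In cress, germination runs through water uptake, rupture of the seed coat (testa) and then rupture of the micropylar endosperm by the growing radicle. Endosperm weakening and radicle growth depend on cell wall loosening by expansins, xyloglucan-modifying enzymes and other wall proteins, promoted by gibberellin and opposed by abscisic acid (ABA). Plants detoxify foreign compounds in phases: oxidoreductases and cytochrome P450 enzymes introduce or expose reactive groups, glutathione transferases (GSTs) and UDP-glucosyltransferases (UGTs) conjugate them, and ABC and MATE transporters move the conjugates into the vacuole or out of the cell. The question was how far along the control path from 6 h to 12 h the treated seeds stood, and which transcripts did not lie on it.

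The values were read counts for 48306 assembled transcript fragments (contigs). Library totals ran from 22735661 to 32694757 (median 27357141) in MyA 12 h and from 26779336 to 31655333 (median 30569884) in control 6 h. Of all contigs, 22155 reached 5 CPM, which are counts scaled to library size, in at least 4 libraries and were tested. These libraries could be of any group, so a contig near 0 CPM in control 6 h was tested only because it was high elsewhere. That limits what counts of higher contigs in the lists can show. Levels are CPM scaled by TMM (trimmed mean of M values). Contig lengths were not used, so levels are compared between libraries and not between contigs. Gene names are the study's best Arabidopsis matches, and several contigs can carry the same name and share reads. Names were given to 450 contigs that the study had selected, mostly on these libraries, so that lists built from them are not independent evidence of a direction. The list of seed maturation genes stood for seed material, and 6 of its 8 contigs passed the filter. Passing it does not check seed identity in MyA 12 h or control 6 h, because other groups, dry seed included, can carry a contig past the filter.

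One feature of the libraries moved with the groups. The fifth MyA 18 h library, which the study left out, stood apart in 1997 contigs at least 4-fold above the mean of the other 4 MyA 18 h libraries, and these contigs (called the enriched set here) held 23.8% of its counts. They held 4.34%, 5.94%, 7.17%, 5.81% and 1.72% of the counts in MyA 12 h libraries 1 to 5, against 2.11%, 1.28%, 1.76%, 1.14% and 0.485% in control 6 h. Libraries 1 to 4 of MyA 12 h lay above every control 6 h library and library 5 lay within the control range. The mean share was 5.00 ± 2.09% in MyA 12 h and 1.36 ± 0.62% in control 6 h (SD, n = 5 each; exact permutation test, two-sided p = 0.0238), with 1.54 ± 0.503% in control 12 h. Of the 28 contigs whose best match was to Brassica only, the 21 that passed the filter were all in this set, as were 5 of the 9 tested plastid and photosynthesis contigs. The part of the set in the results below was not tested, and counts are given with and without it.

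Each library was placed on the line from the mean of control 6 h (position 0) to the mean of control 12 h (position 1) in log2 CPM over all tested contigs. A control library was placed with itself left out of its group mean. The MyA 12 h libraries 1 to 5 stood at 1.08, 1.05, 1.01, 1.02 and 0.861, against 0.0803, 0.0390, 0.112, 0.0187 and 0.0468 for control 6 h. The control 12 h libraries stood at 0.976, 0.932, 1.04, 1.01 and 0.883. No MyA 12 h library was near control 6 h, and their range lay around that of control 12 h. MyA 12 h averaged 1.01 ± 0.0848, against 0.0593 ± 0.0368 in control 6 h and 0.969 ± 0.0635 in control 12 h (SD, n = 5 each). The difference from control 6 h was 0.946 (exact permutation p = 0.00794, two-sided, the smallest that 5 against 5 can give; adjusted over both comparisons 0.0159). The difference from control 12 h was 0.0359 (exact permutation p = 0.46), and its sign turned under some of the other settings. The axis was built from the control 6 h and control 12 h libraries and was not rebuilt for each arrangement. These p-values therefore describe the positions and are not an independent test, and the same holds for distances from the line below.

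Without the enriched set the MyA 12 h libraries averaged 0.981 ± 0.0747, against 0.976 ± 0.0607 in control 12 h. Over the 2845 contigs that were higher in control 12 h than in control 6 h, MyA 12 h averaged 0.952 ± 0.0504, against 0.996 ± 0.0702 in control 12 h. Over the 3233 contigs that were lower, MyA 12 h averaged 0.974 ± 0.124, against 0.994 ± 0.0722 in control 12 h. Both groups of contigs were chosen on these same control libraries, which draws control 12 h but not MyA 12 h towards 1. The small gaps can be set in part by that choice and are not read as a lag. Library 5 was the lowest of the MyA 12 h libraries in all contigs and in those that decline, where it stood at 0.767. Positions are not a time scale: dry seed, which precedes 6 h, stood at 0.292 ± 0.0424 (n = 5), while MyA 6 h stood at 0.0832 ± 0.0766 (n = 5) and the 4 MyA 18 h libraries used at 1.22 ± 0.121.

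**Figure D1:**
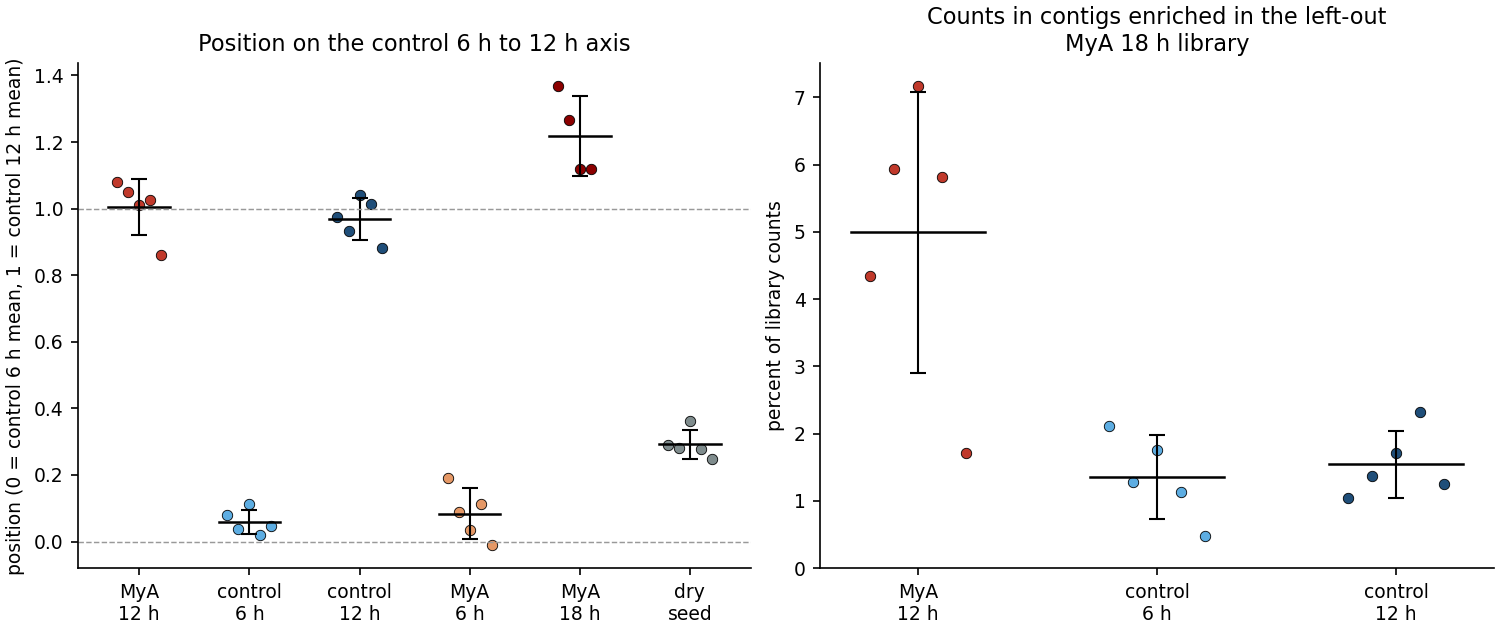
Left, position of each library on the axis from the control 6 h mean (0) to the control 12 h mean (1), by group; right, percent of each library's counts in the enriched set. Points are libraries, lines are means and bars are SD (n = 5, but 4 for MyA 18 h). The MyA 12 h libraries lie between 0.861 and 1.08, beside control 12 h and apart from control 6 h; in the right panel 4 of 5 lie above all control libraries.

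Distance from the line was also measured, as the root mean square over contigs of the log2 departure. It averaged 0.692 ± 0.153 in MyA 12 h and 0.408 ± 0.118 in control 12 h (exact permutation p = 0.0159, two-sided), while without the enriched set it was 0.427 ± 0.137 in MyA 12 h and 0.377 ± 0.122 in control 12 h (exact permutation p = 0.563). Of the contigs outside the set, 99.2% had a mean departure within log2 1 of the line, whereas 67.0% differed by less than log2 1 between MyA 12 h and control 6 h.

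Between MyA 12 h and control 6 h, 4553 contigs were called higher (20.6% of those tested) and 3759 lower (17%) by edgeR (adjusted p under 0.05 with a log2 fold change beyond 1, that is 2-fold). Of the higher contigs, 1906 belonged to the enriched set, and outside it 2647 were higher (13.1%) and 3742 lower (18.6%). The counts of each list below are to be read beside these shares. The set had a median log2 fold change of 2.03 in MyA 12 h and 0.23 in control 12 h, both relative to control 6 h, while the median of all tested contigs was 0.03 and 0.08. These 2 comparisons share the control 6 h libraries. The 5 MyA 12 h libraries lay wholly above the 5 control 6 h libraries in 2486 of the contigs called higher and wholly below in 3581 of those called lower. Among all 22155 tested contigs, called or not, they lay wholly above in 4431 and wholly below in 6580. Scaling by 3 reference contigs of RT-qPCR instead of TMM moved the median of all contigs to -0.45 and the split to 3188 higher and 6670 lower.

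**Figure D2:**
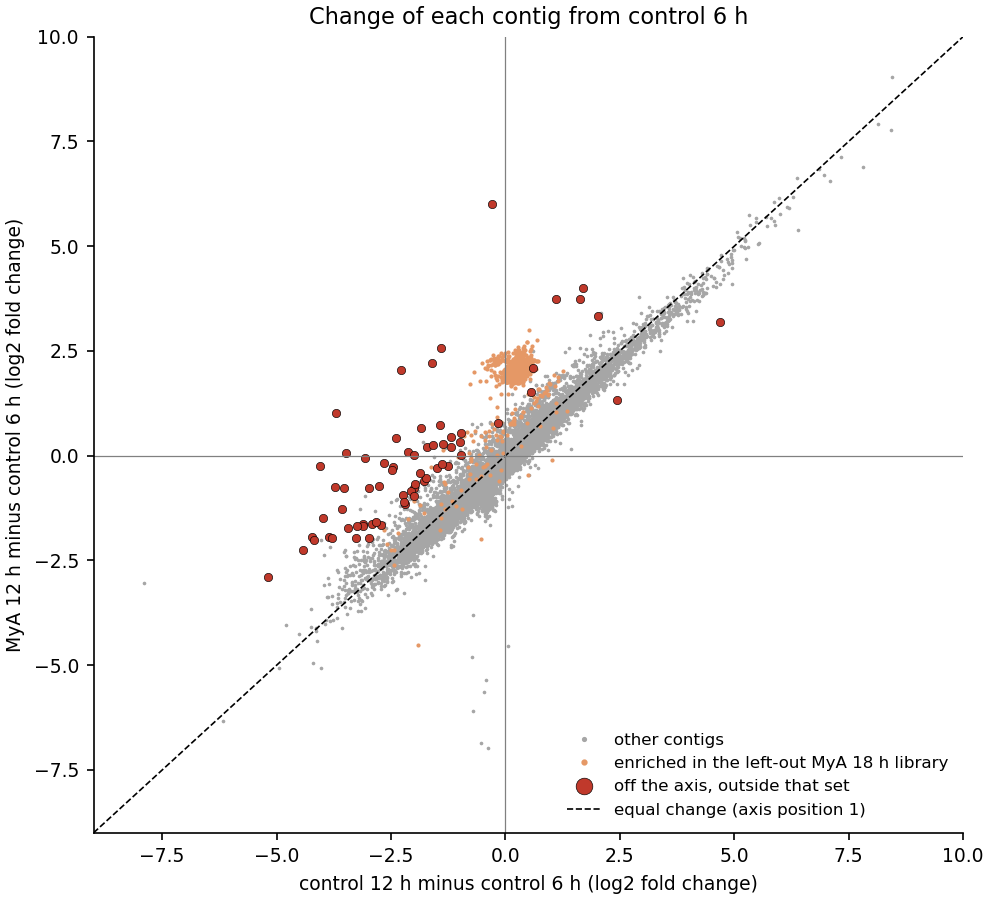
Log2 fold change of each tested contig relative to control 6 h, in MyA 12 h (vertical) and in control 12 h (horizontal); both share the control 6 h libraries. Most contigs lie along the dashed line of equal change; the enriched set forms a cloud with a median of 2.03 vertically and 0.23 horizontally, and outside it 66 contigs called off the axis lie above the line and 2 below.

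Most tested cell wall contigs were higher in treated seed at 12 h than in control seed at 6 h. Of 19 cell wall contigs 9 were tested, of which 8 were higher and 1 lower in MyA 12 h than in control 6 h, with a median log2 fold change of 4.31. In control 12 h the count was the same, 8 higher (12.8% of all contigs) and 1 lower (14.6%), with a median of 4.35, and no tested member was called off the axis. Over these contigs MyA 12 h stood at a mean position of 0.967 (0.839 to 1.12). Members near 0 CPM in control 6 h passed the filter through other groups and could be called higher but not lower. The count of higher members is therefore no independent evidence of a direction. Of the 10 cell wall contigs under the filter, 5 were higher and none was lower.

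ELP (TC_25766), an extensin-like protein, had 28.8, 21.1, 18.9, 7.96 and 4.60 CPM in MyA 12 h, against 0.136, 0.114, 0.0658, 0.0320 and 0 CPM in control 6 h. Every treated library was above every control 6 h library, and control 12 h held 6.72 to 28.6 CPM. The mean was 234-fold higher in MyA 12 h than in control 6 h (7.92 on the log2 scale, with an SE of 0.71 as for the ± of all fold changes and departures below; edgeR adjusted p = 5.4e-06).

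XTH10 (TC_28243), a xyloglucan endotransglucosylase/hydrolase, which cuts and rejoins xyloglucan chains, had 3.99, 3.88, 3.94, 5.65 and 2.45 CPM in MyA 12 h, against 0.272, 0.341, 0.263, 0.0960 and 0.0952 CPM in control 6 h. The groups did not overlap (log2 fold change 4.31 ± 0.39, edgeR adjusted p = 5.9e-06), and control 12 h had 2.49 to 4.26 CPM. XTH9 (TC_23265) of the same family held 357 counts in MyA 12 h and 2 counts in control 6 h, a ratio of 173 with a 95% counting interval of 47.6 to 1440. For the extensin EXT3 (TC_47372), a structural wall glycoprotein, 185 counts stood against 3 counts, a ratio of 59.8 (20.2 to 293); the intervals cover counting error only.

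The single cell wall contig that was lower was EPR1 (TC_36804), an extensin-like proline-rich protein expressed in the endosperm in Arabidopsis. It had 26.4, 58.9, 39.4, 34.1 and 29.4 CPM in MyA 12 h, against 171, 117, 169, 241.3 and 354 CPM in control 6 h, without overlap (log2 fold change -2.40 ± 0.33, edgeR adjusted p = 8.6e-05). Control 12 h had 34.9 to 88.4 CPM and its log2 fold change from control 6 h was -1.59 ± 0.33. The summed level of all 19 cell wall contigs was 59.5 to 106 CPM in MyA 12 h, 122 to 359 CPM in control 6 h and 76.8 to 149 CPM in control 12 h. In control 6 h EPR1 alone made up 117 to 354 CPM of that sum. The sum was lower in every MyA 12 h library than in any control 6 h library, although most tested members were higher.

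All 3 tested lipid transfer protein contigs, of 6, were higher in MyA 12 h (median log2 fold change 3.70, against 4.23 in control 12 h). One of them, AT4G12530 (TC_48625), held 312 counts in MyA 12 h and 2 in control 6 h, a ratio of 151 (41.6 to 1260). It too passed the filter through other groups. The 3 lipid transfer protein contigs under the filter were also higher. The median of 11 tested histone contigs was 0.46 in MyA 12 h (-0.01 with the reference contigs as scale) and 0.50 in control 12 h. Of them 1 was higher and none lower (20.6% and 17% of all tested contigs). That 1 was H2B (TC_42532), a core histone, with 30.11, 15.7, 21.0, 31.7 and 28.5 CPM in MyA 12 h and 14.1, 11.2, 13.8, 8.96 and 7.93 CPM in control 6 h. Its groups did not overlap (log2 fold change 1.27 ± 0.22, edgeR adjusted p = 0.00039), but with the reference contigs as scale its log2 fold change was 0.81, under the 2-fold threshold.

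Among the other named contigs with the largest rises, AT3G44190 (log2 fold change 6.01) was far above control 12 h and is described with the oxidoreductases, and 5 others lay near the control 12 h level. BCAT-1 (TC_49282), a branched-chain amino acid aminotransferase, had 15.8, 6.65, 6.42, 5.22 and 18.6 CPM in MyA 12 h, against 0.0758 to 0.136 CPM in control 6 h and 3.11 to 16.6 CPM in control 12 h (log2 fold change from control 6 h 6.64 ± 0.48, edgeR adjusted p = 1.7e-06). Log2 fold changes from control 6 h were 6.18 ± 0.50 for the O-methyltransferase AT1G77520 (TC_45747), 5.66 ± 0.36 for AT1G61760 (TC_48364), annotated as a hydroxyproline-rich LEA protein, 5.61 ± 0.69 for the RNA-binding protein ARP1 (TC_35950) and 5.51 ± 0.63 for the acyltransferase AT5G12420 (TC_26934), with adjusted p of at most 4.0e-05. In control 12 h the same contigs had 6.28, 5.47, 5.87 and 5.33.

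**Figure D3:**
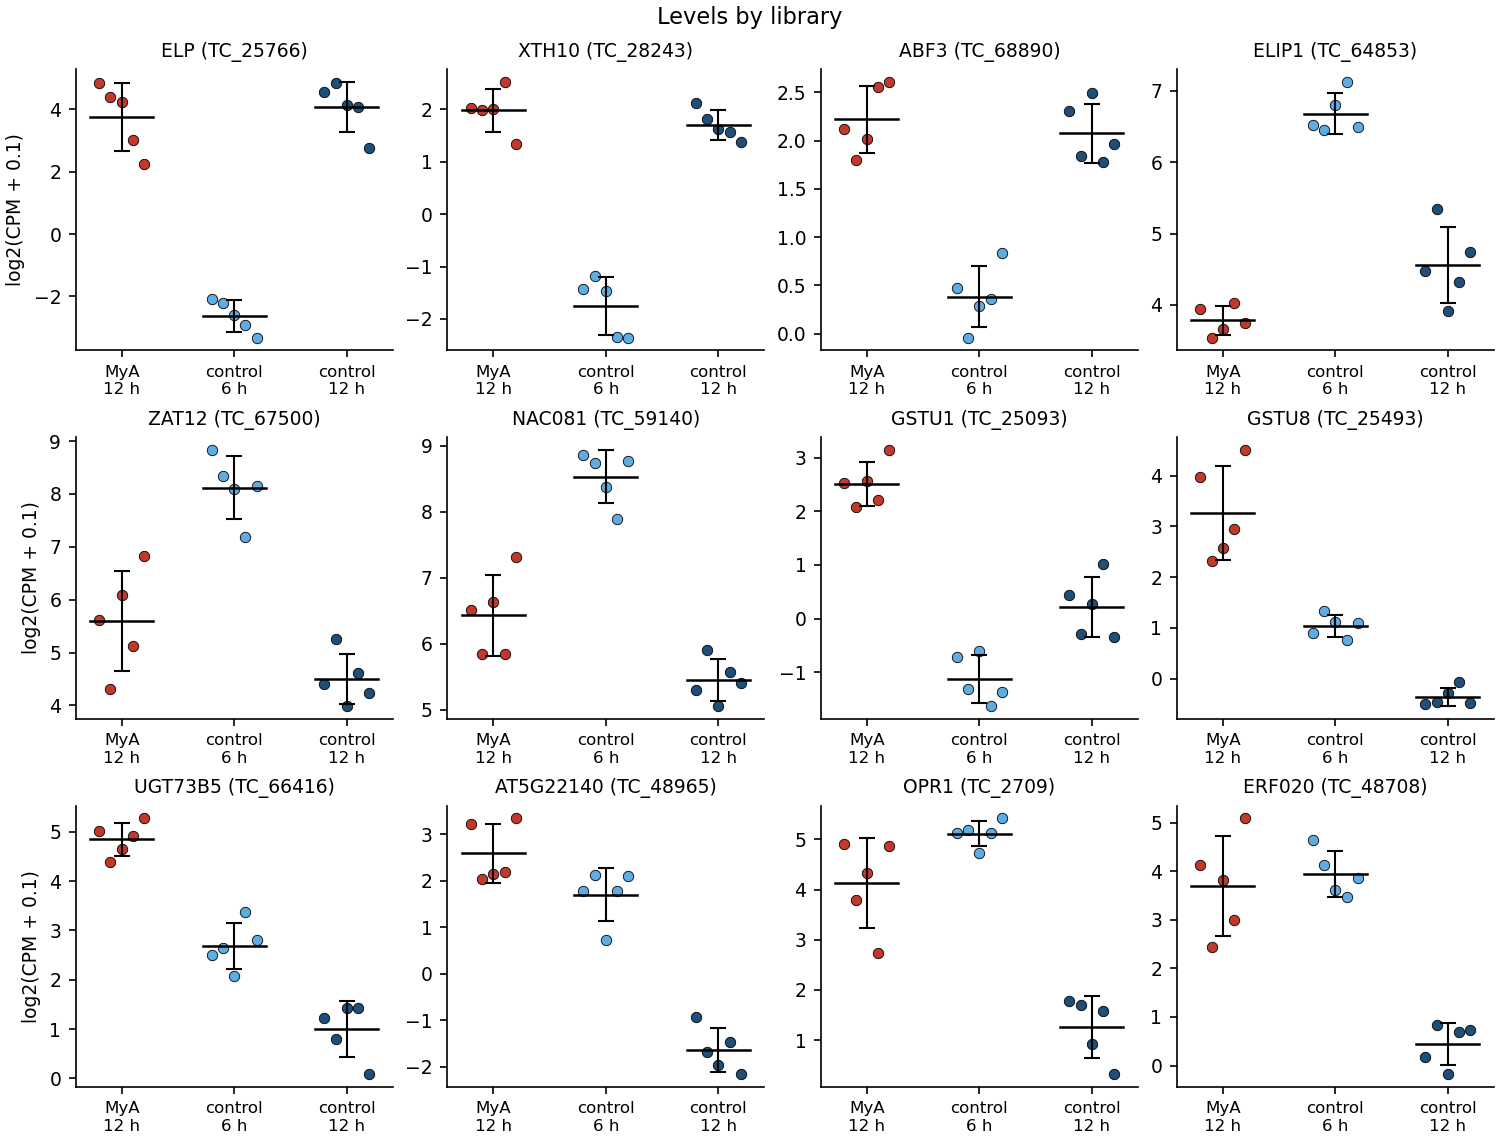
Levels of 12 contigs by library, as log2(CPM + 0.1), in MyA 12 h, control 6 h and control 12 h; points are libraries, lines are means and bars are SD (n = 5 each). ELP, XTH10 and ABF3 in MyA 12 h are near control 12 h; ZAT12 and NAC081 lie between both controls; GSTU1, GSTU8 and UGT73B5 are above both, with means of 5.77, 11.3 and 29.4 CPM in MyA 12 h; AT5G22140, OPR1 and ERF020 are closer to control 6 h than to control 12 h.

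Stress transcription factors stood between the 2 controls. Of 21 contigs 16 were tested: 9 were lower and 1 higher in MyA 12 h (median log2 fold change -1.46), and 15 were lower in control 12 h (median -3.05). Of the 16, 11 were called above the axis, that is higher than at the matching point of the control path by the test given below (8.61% of all tested contigs and 0.327% of those outside the set were), and 3 with the enriched set removed before scaling. The mean position of MyA 12 h over them was 0.517 (0.152 to 0.849), with control 12 h at 0.788 to 1.13. Positions over lists are descriptions, because the study selected most listed contigs on these libraries. Across libraries the summed level of the list was 153 to 564 CPM in MyA 12 h, 581 to 1546 CPM in control 6 h and 86.6 to 155 CPM in control 12 h.

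ZAT10 (TC_34955), a zinc finger repressor of stress responses, had 5.58, 1.57, 9.89, 2.30 and 15.3 CPM in MyA 12 h, against 110, 36.9, 26.8, 14.9 and 84.2 CPM in control 6 h. Library 5 of MyA 12 h reached the lowest control 6 h library, and control 12 h had 0.591 to 2.85 CPM. Its log2 fold change from control 6 h was -2.89 ± 0.69 in MyA 12 h (edgeR adjusted p = 0.0033) and -5.20 ± 0.63 in control 12 h.

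ZAT12 (TC_67500), a related zinc finger protein, had 49.2, 19.9, 67.5, 34.6 and 113 CPM in MyA 12 h, against 454, 322, 272, 146 and 284.8 CPM in control 6 h (log2 fold change -2.30 ± 0.43, edgeR adjusted p = 0.00073). The groups did not overlap, and library 5 was the highest treated library. NAC081 (TC_59140), a NAC domain factor of wound and pathogen responses, had 90.7, 57.3, 99.4, 57.3 and 159 CPM in MyA 12 h, against 466, 429, 334, 238 and 438 CPM in control 6 h (log2 fold change -1.96 ± 0.29, edgeR adjusted p = 0.00015). It too was highest in library 5 and did not overlap, while control 12 h had 33.2 to 59.8 CPM. ERF2 (TC_47476), an ethylene response factor, had a log2 fold change of -2.26 ± 0.42 in MyA 12 h and -3.51 ± 0.29 in control 12 h.

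Outside this list, ELIP1 (TC_64853), an early light-inducible protein that binds chlorophyll, was lower in both. It had 15.2, 11.5, 12.6, 16.3 and 13.3 CPM in MyA 12 h, against 91.7, 87.8, 112, 139 and 90.4 CPM in control 6 h, with no overlap (log2 fold change -2.83 ± 0.16, edgeR adjusted p = 6.8e-07), and 14.96 to 40.5 CPM in control 12 h. BHP1 (TC_44678), annotated as a protein kinase, had 7.53, 2.67, 15.6, 2.78 and 34.1 CPM in MyA 12 h, against 35.9 to 91.2 CPM in control 6 h (log2 fold change -2.18 ± 0.63, edgeR adjusted p = 0.0094), and 2.74 to 4.78 CPM in control 12 h.

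To name contigs off the path, the departure of the MyA 12 h mean from the point at the mean treated position (1.01) was tested for each contig, and a contig was called where the adjusted p was under 0.05 and the departure exceeded log2 1. As that point is nearly the control 12 h mean, the departure is close to the difference between MyA 12 h and control 12 h. Of all contigs 1908 were above (8.61%) and 2 below (0.00903%), and 96.5% of those above were in the enriched set. Outside it 66 were above (0.327%) and 2 below (0.00992%). At an unadjusted edgeR p under 0.05 and with no fold threshold, 417 contigs outside the set were above and 506 below. When library 1 or library 5 of control 12 h was left out, the 1908 became 23 or 22 and the 66 became 22 or 21. With the set removed before scaling, and so also from the adjustment, 31 contigs were above, all of them among the 66. As p-values were adjusted over all fitted contigs, calls in the set bear on the adjusted p outside it. The departure of ERF018, for example, was 2.86 in the main fit (edgeR adjusted p = 0.015) and 2.90 with the set removed (edgeR adjusted p = 0.157). How much the adjustment contributes to these counts was not tested.

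Of the 66, 55 were lower in control 12 h than in control 6 h, 4 were higher and 7 were not called. In MyA 12 h 18 of the 66 were lower than in control 6 h, 11 were higher and 37 were not called. Their median log2 fold change from control 6 h was -0.32 in MyA 12 h and -2.20 in control 12 h. Over these 66 the MyA 12 h libraries 1 to 5 stood at positions 0.370, 0.665, 0.320, 0.608 and 0.0650, with library 5 nearest to control 6 h; this is a description, because the contigs were chosen by their distance from control 12 h. MyA 12 h was more than 2-fold above both control 6 h and control 12 h in 1852 contigs (8.36%), of which 10 were outside the set (0.0496% of the contigs there). None was below both by that rule, where 7 contigs had an unadjusted p under 0.05 and scaling by library size gave 1.

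Glutathione transferases of the tau class made up 5 of those 10. Of 12 GST contigs 7 were tested, 5 were higher in MyA 12 h than in control 6 h and none was lower (20.6% and 17% of all tested contigs). The median log2 fold change was 2.58 in MyA 12 h and -0.17 in control 12 h. All 7 were called above the axis. GSTU1, GSTU22, GSTU8 and GSTU25 TC_23016 lay under 5 CPM in both controls and passed the filter through other libraries. The counts of members higher, above the axis or above both controls are therefore no independent evidence of a direction. The summed level of the list was 65.2 to 154 CPM in MyA 12 h, 26.7 to 46.7 CPM in control 6 h and 19.1 to 33.3 CPM in control 12 h.

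GSTU1 (TC_25093) had 5.66, 4.11, 5.84, 4.52 and 8.69 CPM in MyA 12 h, against 0.510, 0.303, 0.560, 0.224 and 0.286 CPM in control 6 h and 1.25, 0.719, 1.102, 1.93 and 0.684 CPM in control 12 h. Every treated library was above both controls (log2 fold change from control 6 h 4.01 ± 0.31, edgeR adjusted p = 2.4e-06; departure 2.37 ± 0.32, adjusted p = 0.0025). GSTU22 (TC_25073) had 5.50, 3.71, 4.52, 5.00 and 6.56 CPM in MyA 12 h, against 0.272 to 0.658 CPM in control 6 h and 1.095 to 1.24 CPM in control 12 h. Its log2 fold change from control 6 h was 3.75 ± 0.29 (edgeR adjusted p = 2.3e-06) and its departure 2.16 ± 0.23.

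GSTU25, an enzyme known in Arabidopsis for conjugating the explosive TNT, was represented by 2 tested contigs. TC_66333 had 37.01, 17.9, 13.4, 24.1 and 46.3 CPM in MyA 12 h, against 1.52 to 2.55 CPM in control 6 h and 3.80 to 4.67 CPM in control 12 h (log2 fold change from control 6 h 3.75 ± 0.33). TC_23016 had 6.24, 1.103, 1.63, 1.00 and 10.4 CPM in MyA 12 h, against 1.26, 0.872, 1.35, 0.704 and 1.02 CPM in control 6 h and 0.124 to 0.296 CPM in control 12 h. In this second contig libraries 1 and 5 were high, and the others of MyA 12 h overlapped or bordered the control 6 h range (log2 fold change 2.03 ± 0.63, edgeR adjusted p = 0.013).

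GSTU8 (TC_25493) had 15.6, 4.91, 5.84, 7.65 and 22.5 CPM in MyA 12 h, against 1.77, 2.43, 2.07, 1.60 and 2.03 CPM in control 6 h and 0.609 to 0.852 CPM in control 12 h. All treated libraries were above both controls, libraries 1 and 5 most (log2 fold change from control 6 h 2.58 ± 0.41, edgeR adjusted p = 0.00022; departure 4.06 ± 0.38, adjusted p = 0.00016). GSTU15 (TC_30551) had 27.5, 11.7, 18.9, 17.9 and 35.7 CPM in MyA 12 h and 12.7, 15.5, 17.5, 8.86 and 13.6 CPM in control 6 h. These groups overlapped, and its log2 fold change of 0.79 ± 0.27 was under the 2-fold threshold.

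UDP-glucosyltransferases were divided. All 8 contigs were tested, of which 3 were higher and 3 lower in MyA 12 h than in control 6 h (20.6% and 17% of all tested contigs). The median log2 fold change was -0.41, and with the reference contigs as scale 1 was higher and 4 were lower. In control 12 h 6 were lower and the median was -2.90. Above the axis were 6 of the 8, and the mean position of MyA 12 h over the list was 0.392 (0.0926 to 0.612). That position too is a description of contigs selected mostly on these libraries.

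Of the 3 contigs of UGT73B5, a stress-responsive enzyme in Arabidopsis, TC_66416 had 32.2, 21.0, 25.003, 30.04 and 38.6 CPM in MyA 12 h, against 5.54, 6.18, 4.15, 10.3 and 6.86 CPM in control 6 h and 2.25, 1.65, 2.58, 2.59 and 0.964 CPM in control 12 h. The treated libraries were above both controls (log2 fold change from control 6 h 2.23 ± 0.25, edgeR adjusted p = 2.2e-05; departure 3.91 ± 0.30, adjusted p = 2.4e-05). TC_17628 had 22.5, 9.82, 24.3, 8.30 and 55.4 CPM in MyA 12 h, against 42.5, 19.9, 23.2, 18.8 and 26.7 CPM in control 6 h and 2.39 to 3.68 CPM in control 12 h. Here MyA 12 h overlapped control 6 h (log2 fold change -0.05 ± 0.45) and lay wholly above control 12 h. TC_48316 had 8.94, 3.54, 12.0, 6.304 and 9.18 CPM in MyA 12 h and 12.29 to 18.12 CPM in control 6 h, a log2 fold change of -0.78 ± 0.27 that did not pass the 2-fold threshold, with 0.787 to 1.56 CPM in control 12 h.

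UGT74E2 (TC_54879), which glucosylates the auxin indole-3-butyric acid in Arabidopsis, was lower in MyA 12 h than in control 6 h. It had 8.22, 3.11, 3.43, 2.04 and 14.7 CPM in MyA 12 h, against 27.4, 26.6, 27.5, 21.1 and 30.6 CPM in control 6 h and 0.609, 0.839, 0.850, 3.70 and 0.964 CPM in control 12 h. The treated libraries were all under control 6 h (log2 fold change -2.01 ± 0.45, edgeR adjusted p = 0.0024), and library 5 was the highest of them. UGT75B1 (TC_37531) behaved in the same direction, with 24.1, 12.9, 15.7, 20.6 and 49.99 CPM in MyA 12 h, 72.3 to 139 CPM in control 6 h and 3.56 to 15.2 CPM in control 12 h (log2 fold change from control 6 h -1.96 ± 0.34, edgeR adjusted p = 0.00047).

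Oxidoreductases, with the 12-oxophytodienoate reductases OPR1/2, had a mean position of 0.125 (-0.141 to 0.361), the nearest to control 6 h among the detoxification lists. This order is a description, because the study selected most listed contigs on these libraries. A position also leaves out the distance from the line. Of 11 contigs 8 were tested, and all 8 were above the axis. In MyA 12 h 2 were higher and 1 lower than in control 6 h (20.6% and 17% of all tested contigs), with a median log2 fold change of -0.09. In control 12 h 6 were lower (median -2.43). With the reference contigs as scale 1 was higher and 3 were lower in MyA 12 h.

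AT3G44190 (TC_66085), a FAD/NAD(P)-binding oxidoreductase, was the contig furthest above the axis among those named. It had 11.7, 2.74, 1.60, 3.09 and 10.8 CPM in MyA 12 h, against 0.204, 0.0379, 0, 0.160 and 0.0635 CPM in control 6 h and 0.122, 0.0899, 0.0945, 0 and 0.0311 CPM in control 12 h. No treated library overlapped either control, and libraries 1 and 5 were high (log2 fold change from control 6 h 6.01 ± 0.80, edgeR adjusted p = 6.9e-05; departure 6.36 ± 0.77, adjusted p = 0.0013).

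AT5G22140 (TC_48965) of the same family had 9.24, 4.01, 4.31, 4.48 and 10.02 CPM in MyA 12 h, against 3.33, 4.25, 1.55, 3.33 and 4.19 CPM in control 6 h and 0.426, 0.210, 0.157, 0.259 and 0.124 CPM in control 12 h. It departed by 4.78 ± 0.43 (adjusted p = 0.00011), but its log2 fold change from control 6 h was only 1.02 ± 0.35 (edgeR adjusted p = 0.021) and lost the call in 5 of the leave-one-library-out fits. OPR1 (TC_2709), a reductase of cyclic oxylipins, had 29.8, 13.7, 20.14, 6.56 and 28.9 CPM in MyA 12 h, against 34.8, 36.2, 26.3, 34.9 and 42.7 CPM in control 6 h and 1.15 to 3.32 CPM in control 12 h. The treated libraries overlapped control 6 h (log2 fold change -0.74 ± 0.34, edgeR adjusted p = 0.067) and lay above control 12 h, and a second OPR1 contig (TC_9428) had -0.18 ± 0.31 from control 6 h and a departure of 2.54 ± 0.36.

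Among 15 tested contigs of other stress and antioxidant proteins, 3 were higher and 3 lower than control 6 h (20.6% and 17% of all tested contigs). Of these 15, 7 were above the axis, and the median log2 fold change was -0.26 in MyA 12 h and -2.10 in control 12 h. Of 2 contigs named for tolB-related proteins, TC_42901 had 11.03, 4.28, 20.8, 3.22 and 23.02 CPM in MyA 12 h, against 30.3, 10.5, 14.2, 6.27 and 17.2 CPM in control 6 h and 0.378 to 1.77 CPM in control 12 h. It overlapped control 6 h (log2 fold change -0.24 ± 0.55). TC_61219 had 11.8, 6.65, 28.5, 4.61 and 23.6 CPM in MyA 12 h, against 61.3 to 102.4 CPM in control 6 h and 2.08 to 6.89 CPM in control 12 h (log2 fold change from control 6 h -2.24 ± 0.45, edgeR adjusted p = 0.0012).

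The serine acetyltransferase SAT1 (TC_45268), of cysteine synthesis, on which glutathione depends, had 18.6, 8.09, 12.0, 10.5 and 25.2 CPM in MyA 12 h, against 13.1 to 26.6 CPM in control 6 h and 2.43 to 4.31 CPM in control 12 h. It overlapped control 6 h and not control 12 h (departure 2.27 ± 0.30, adjusted p = 0.0025). OXI1 (TC_44356), a kinase induced by oxidative stress, had 10.8, 4.98, 12.6, 4.26 and 40.3 CPM in MyA 12 h, against 115, 47.4, 44.4, 27.4 and 60.1 CPM in control 6 h. Its log2 fold change was -1.93 ± 0.59 (edgeR adjusted p = 0.012), and library 5 alone lay within the control 6 h range.

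The class III peroxidase PER13 (TC_24424), of a secreted family that acts on the wall and on hydrogen peroxide, had 15.5, 12.7, 22.5, 11.6 and 25.5 CPM in MyA 12 h, against 1.73, 2.20, 1.74, 1.82 and 1.68 CPM in control 6 h and 5.63, 5.54, 7.24, 8.999 and 7.15 CPM in control 12 h. The treated libraries were above both (log2 fold change from control 6 h 3.34 ± 0.24, edgeR adjusted p = 1.8e-06; departure 1.36 ± 0.21, adjusted p = 0.0083). Both tested peroxidases, of 5 contigs, were higher than in control 6 h. The ethylene response factor ERF020 (TC_48708) had 17.3, 5.35, 13.96, 7.83 and 33.8 CPM in MyA 12 h, against 24.8, 17.3, 12.0, 10.97 and 14.5 CPM in control 6 h and 0.787 to 1.68 CPM in control 12 h, so that it overlapped control 6 h (log2 fold change 0.05 ± 0.42) and departed by 3.61 ± 0.44 (adjusted p = 0.0013). ERF018 (TC_65678), of the same family, departed by 2.86 ± 0.66.

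Of the contigs in this account that were called off the axis outside the set, AT3G44190, AT5G22140, GSTU1, GSTU8, GSTU22, PER13, ERF020, SAT1 (TC_45268), both tested GSTU25 and OPR1 contigs and all 3 UGT73B5 contigs held the call in every alternative run. The calls of tolB, ERF018, UGT74E2, UGT75B1, ZAT10, NAC081, OXI1, GA2OX6, OPT3, BHLH62 and GSTU15 were lost when library 1 or library 5 of control 12 h was left out. In these fits the departure of tolB TC_42901 was 3.93 and 3.81 and that of ERF018 3.07 and 2.73, with adjusted p of 0.0534 and 0.0513 for both contigs. Removing the enriched set before scaling also ended these calls, ERF018 included (2.90, adjusted p = 0.157), other than that of tolB TC_42901. By list, that setting left above the axis 5 of 7 GST, 4 of 8 UGT, 7 of 8 oxidoreductase, 5 of 15 other stress and antioxidant, 3 of 16 stress transcription factor and 1 of 5 cytochrome P450 contigs.

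**Figure D4:**
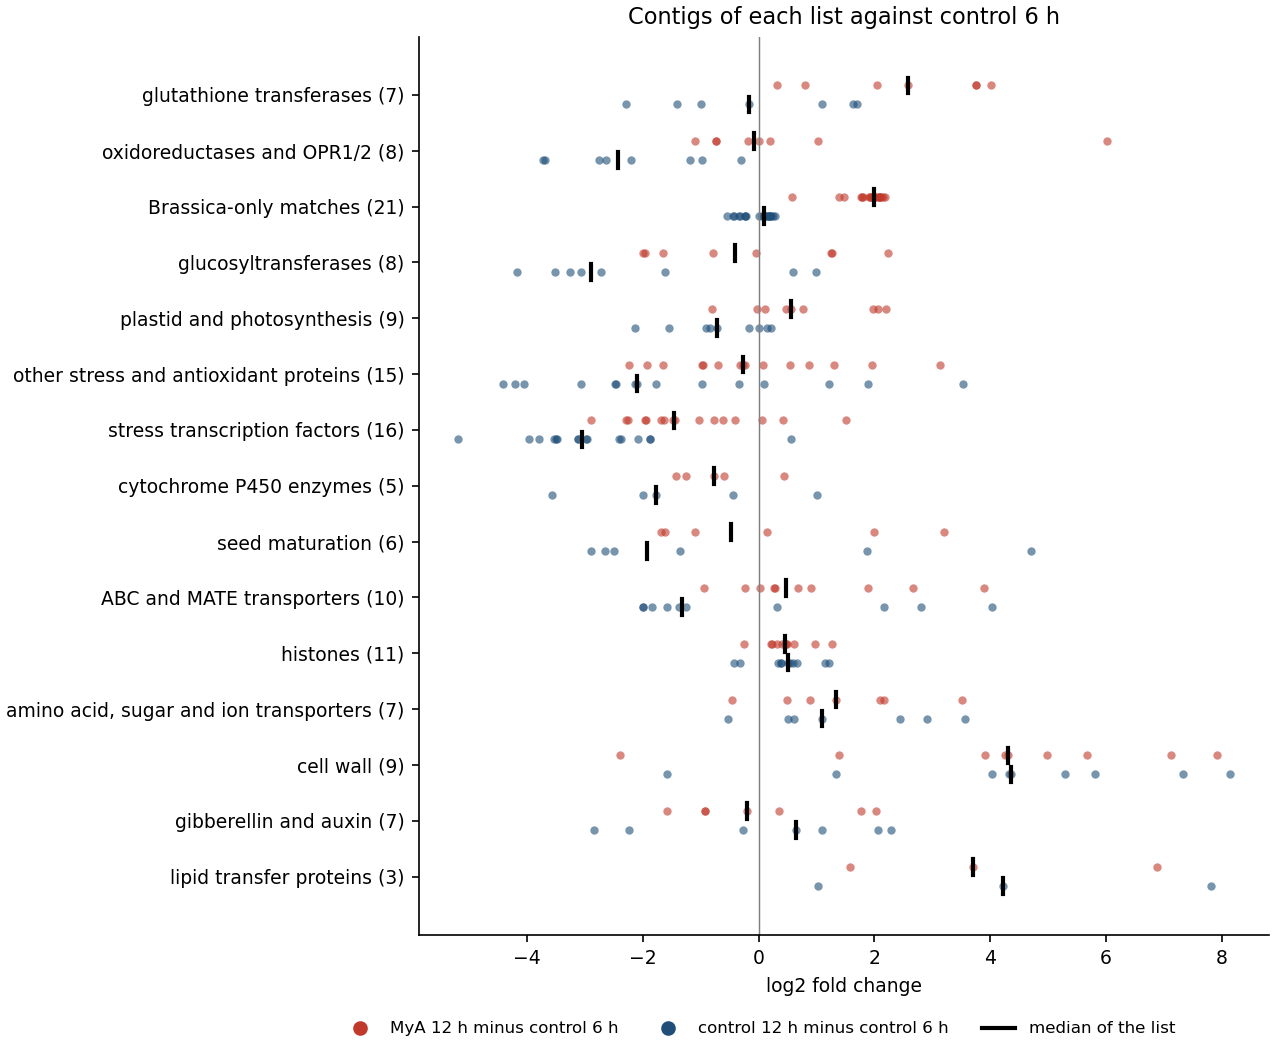
Log2 fold change from control 6 h of the tested contigs of each list (number in brackets), in MyA 12 h (red) and control 12 h (blue), with list medians as black bars; both share the control 6 h libraries. Medians lie close together for cell wall contigs (4.31 in MyA 12 h and 4.35 in control 12 h) and apart for glutathione transferases (2.58 in MyA 12 h and -0.17 in control 12 h).

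Cytochrome P450 contigs, 5 of 8 tested, had 1 lower member and none higher in MyA 12 h (17% and 20.6% of all tested contigs). With the reference contigs as scale 4 were lower. Their median was -0.78 in the main fit, against -1.77 in control 12 h. The lower one in the main fit was CYP78A7 (TC_67276), with 12.35, 20.02, 19.98, 27.6 and 15.3 CPM in MyA 12 h. It had 43.8 to 60.9 CPM in control 6 h and 25.4 to 46.3 CPM in control 12 h (log2 fold change from control 6 h -1.43 ± 0.21, edgeR adjusted p = 0.00012). Of 10 tested ABC and MATE transporter contigs 3 were higher and none lower than in control 6 h (20.6% and 17% of all tested contigs). Of the 10, 6 were above the axis (3 with the enriched set removed before scaling). Their median log2 fold change was 0.48 in MyA 12 h (-0.03 with the reference contigs as scale) and -1.32 in control 12 h.

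Of 14 amino acid, sugar and ion transporter contigs 7 were tested and 4 were higher in MyA 12 h (20.6% of all tested contigs were). The medians were 1.34 in MyA 12 h and 1.09 in control 12 h. OPT3 (TC_27176), an oligopeptide transporter family member that takes part in iron signalling in Arabidopsis, had 7.31, 4.24, 2.48, 4.17 and 6.91 CPM in MyA 12 h, against 0.889 to 1.81 CPM in control 6 h and 0.871 to 2.98 CPM in control 12 h (log2 fold change from control 6 h 2.10 ± 0.33, edgeR adjusted p = 0.00021). It was above the axis (1.54 ± 0.36), as was the bHLH factor BHLH62 (TC_56436; 1.02 ± 0.25), whose log2 fold change from control 6 h was 1.52 ± 0.24. The borate exporter BOR2 (TC_35418) had 33.2, 33.6, 36.9, 19.5 and 34.3 CPM in MyA 12 h, against 5.66 to 9.93 CPM in control 6 h and 46.2 to 57.3 CPM in control 12 h; the treated libraries lay between the controls without overlap (log2 fold change from control 6 h 2.16 ± 0.24, edgeR adjusted p = 1.9e-05).

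Only 2 contigs were called below the axis. UMAMIT25 (TC_24907), of a family of amino acid exporters, had 4.81, 4.61, 5.61, 7.43 and 7.22 CPM in MyA 12 h, against 2.93, 2.08, 2.37, 1.82 and 3.21 CPM in control 6 h and 13.7, 11.9, 13.5, 10.5 and 13.1 CPM in control 12 h. The treated libraries lay between the controls (log2 fold change from control 6 h 1.34 ± 0.22, edgeR adjusted p = 0.00028; departure -1.07 ± 0.18, adjusted p = 0.015), and with the reference contigs as scale the change from control 6 h was 0.87. A contig named as LEA-like (TC_66257), late embryogenesis abundant proteins being protectants of dry seed, had 2.47, 1.84, 2.28, 1.13 and 1.01 CPM in MyA 12 h, against 0.0635 to 0.296 CPM in control 6 h and 5.60, 5.72, 6.99, 3.96 and 2.05 CPM in control 12 h (departure -1.46 ± 0.37, adjusted p = 0.019). Both calls were lost without library 1 or library 5 of control 12 h. That of UMAMIT25 (TC_24907) was also lost without MyA 12 h library 1 or 2 (departures -0.997 and -0.991), and that of the LEA-like contig without MyA 12 h library 4, without control 12 h library 2 or 3, and with the enriched set removed before scaling.

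Seed maturation genes, 6 tested, had 2 higher and 2 lower members in MyA 12 h (20.6% and 17% of all tested contigs). Their median was -0.48, against -1.93 in control 12 h. One of the 6 belonged to the enriched set, and the median in MyA 12 h was -1.05 with the set removed and -0.96 with the reference contigs as scale. RAB18 (TC_70924), an ABA-induced dehydrin, had 6.21, 15.2, 18.14, 10.09 and 27.2 CPM in MyA 12 h, against 101, 50.2, 60.9, 19.7 and 32.3 CPM in control 6 h and 4.50 to 7.52 CPM in control 12 h. Library 5 lay above the lowest control 6 h library (log2 fold change -1.68 ± 0.45, edgeR adjusted p = 0.006). ABF3 (TC_68890), a bZIP factor of ABA signalling, had 4.23, 3.38, 3.94, 5.78 and 5.99 CPM in MyA 12 h, against 0.872 to 1.68 CPM in control 6 h and 3.33 to 5.51 CPM in control 12 h, a log2 fold change from control 6 h of 2.00 ± 0.24 (edgeR adjusted p = 3.7e-05).

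Of 7 tested gibberellin and auxin contigs 2 were higher and 1 lower in MyA 12 h (20.6% and 17% of all tested contigs). Above the axis were 2, and none with the enriched set removed before scaling. The median log2 fold change was -0.21 in MyA 12 h and 0.64 in control 12 h. The lower one was GA2OX6 (TC_69872), a gibberellin 2-oxidase, which inactivates gibberellin. It had 5.03, 3.71, 9.78, 7.26 and 12.7 CPM in MyA 12 h, against 32.3, 26.8, 20.2, 18.8 and 23.5 CPM in control 6 h and 2.25, 4.04, 3.21, 3.22 and 2.95 CPM in control 12 h. The treated libraries were all under control 6 h (log2 fold change -1.58 ± 0.30, edgeR adjusted p = 0.00084), and its fold change in control 12 h was -2.84 ± 0.19.

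The Brassica-only and the plastid contigs overlap the enriched set, and their origin was not tested. Of the 21 tested Brassica-only contigs 19 were higher in MyA 12 h (median log2 fold change 1.99, against 0.09 in control 12 h), and their summed level was 680 to 2827 CPM in MyA 12 h and 172 to 880 CPM in control 6 h. Of 9 tested plastid and photosynthesis contigs 3 were higher (20.6% of all tested contigs were). Their sums were 219 to 656 CPM in MyA 12 h and 65.6 to 280 CPM in control 6 h, over the whole list. PSBA (TC_67198), the D1 protein of photosystem II, had 301, 411, 503, 608 and 112 CPM in MyA 12 h, against 155, 83.4, 122, 73.6 and 26.0 CPM in control 6 h and 55.8, 88.7, 103, 159 and 73.7 CPM in control 12 h. As in the share of the set, library 5 of MyA 12 h was the lowest and overlapped the controls (log2 fold change from control 6 h 2.19 ± 0.50, edgeR adjusted p = 0.0025).

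Contigs under the filter of 5 CPM were read from a second fit with a minimum of 5 counts. It covered 42831 contigs, those of the main test included. Of these 42831, 24.1% were higher and 17.5% lower in MyA 12 h than in control 6 h, 10.2% were above the axis and 0.063% below. Shares for the contigs under the filter alone were not computed, and the enriched set was not defined among them. Most ribosomal protein contigs lay under the filter. Of these 11 low contigs 10 were higher in MyA 12 h and 6 were above the axis, while the 1 contig in the main test was not called. The summed level of this list was 28.6 to 41.7 CPM in MyA 12 h, 8.95 to 24.8 CPM in control 6 h and 27.1 to 40.6 CPM in control 12 h, so that MyA 12 h was above control 6 h and overlapped control 12 h. Of 5 low GST contigs 2 were higher, 1 was lower and 4 were above the axis, and of 10 low cell wall contigs 5 were higher, none was lower and 1 was below the axis.

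Of the contigs without a gene name, TC_49058 had 19.99, 8.62, 9.55, 7.61 and 13.6 CPM in MyA 12 h, against 0 to 0.132 CPM in control 6 h and 11.7 to 26.5 CPM in control 12 h. TC_48387 was present in MyA 12 h libraries 1 and 4 (4.51 and 6.09 CPM), at 0 in the other treated and all control 6 h libraries, and at 6.87 CPM in 1 control 12 h library. TC_14068 and TC_53819 were called lower in MyA 12 h, but rest on 1 library: they had 6.80 and 10.03 CPM in control 6 h library 1 and at most 0.230 and 0.461 CPM in the other control 6 h libraries. Among all tested contigs 242 had that library at least 4-fold above the other control 6 h libraries, and 8 of these were called lower.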

How the data were processed

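Poly(A) RNA of whole seeds was sequenced from 30 libraries in 6 groups of 5. The authors deposited raw read counts, whole numbers per contig and not normalised; according to its methods, BWA aligned the reads to a transcriptome assembled by the study and HTSeq counted them per contig (versions not given in the sources used here). Each column was matched to its sample by label. M18-5 was left out, as in the study.

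Contigs with at least 5 CPM in at least 4 of 29 libraries were tested; 237 contigs had no count. For MyA 12 h against control 6 h the 10 libraries were fitted with edgeR 4.0.16 (R 4.3.3; TMM, glmQLFit, glmQLFTest), and for the axis the 15 libraries with control 12 h. P-values were Benjamini-Hochberg adjusted over all contigs, and SE come from the fit. Positions used log2 CPM with a prior count of 2. Contigs under the filter were read from a second fit over all contigs with at least 5 counts in 4 libraries (42831 contigs). The named contigs were members of the lists, the 10 largest changes each way and the 10 furthest from the axis each way among annotated contigs, and up to 2 unannotated contigs each way. Members and lists were chosen with earlier results of these data known. The test was checked on simulated counts only. These had another axis position, the same spread for all contigs and no enriched set, so the check does not cover those features of the data. Alternatives were DESeq2 1.42.0, RLE factors, library size, 3 reference contigs, other filters, no fold threshold, a 1.5-fold test, one fit over all groups, a replicate block, removal of the enriched set and each library left out; the leave-one-out of the set's share was added after seeing the data. The authors' fold changes were not used. Contig sequences were not used here.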

Additional observations from a re-analysis of the deposited data

Results flagged for a closer look

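In groups of 5 libraries a value was singled out where the gap from the highest or lowest library to its neighbour exceeded 0.71 of the group's range; chance gives about 1 in 20, and 14 of 177 groups passed. In MyA 12 h, OXI1 was high in library 5 (ratio of gap to range 0.767), BOR2 low in library 4 (0.79) and TC_14068 above 0 in library 3 alone (1). In control 6 h, library 1 was high in AT5G12420 (0.866), TC_14068 (0.966) and TC_53819 (0.96), library 2 in PER13 (0.726), and library 5 was furthest from the axis without the enriched set (0.746). In control 12 h, library 2 was high in tolB contig TC_61219 (0.845) and OXI1 (0.758), library 4 in UGT74E2 (0.885), library 3 in TC_14068 (0.926) and TC_53819 (0.981), and library 5 in TC_48387 (0.995).

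The fifth MyA 18 h library, which entered no comparison, held 23.8125% of its counts in the enriched set, against 0.485% to 2.11% in the control 6 h libraries.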

How the results depend on the processing

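Calls between MyA 12 h and control 6 h (4553 higher, 3759 lower) were 10340 and 7487 with the 5-count filter, 10554 and 7645 with no filter, and 8147 and 7413 with no fold threshold. Removing the enriched set before scaling gave 2998 higher, and the reference contigs gave 6670 lower. Leaving out each library gave 4299 to 4662 higher and 3648 to 4148 lower. Same-numbered libraries of MyA 12 h and control 6 h had correlations of -0.289 to 0.766, with 2 of 5 over 0.1 (0.537 for library 3 and 0.766 for library 5). Of the treated libraries 1 of 5 was closest to its own number. The main fit did not pair the libraries, and with the replicate block 4546 were higher and 3758 lower.

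Contigs above the axis (1908) were 4368 with the 5-count filter and 31 with the set removed, 22 to 1943 with a library left out (1183 without library 2 of control 12 h); outside the set (66) they were 2499 and 31, with 21 to 89. The set was defined only among contigs at 5 CPM. Those below (2) were 27 and 1, with 0 to 3. Contigs beyond both controls (1852) were 7 with the reference contigs, 4042 with the 5-count filter and 7 with the set removed, with 6 to 1886 when a library was left out (6 without library 1 or 5 of control 12 h, 969 without library 2); outside the set (10) they were 2174 with the 5-count filter, with 6 to 11. Below both (0) there was 1 by library size and 11 with the 5-count filter, with 0 to 1. Causes were not tested.

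The mean position of MyA 12 h was 0.953 to 1.04 when a library was left out, and its difference from control 6 h 0.904 to 0.982. Its difference from control 12 h (0.0359) turned to -0.00695 with the reference contigs, -0.000151 with the set removed, -0.0306 over contigs changed in control, -0.0434 over those higher and -0.0203 over those lower, and ran from -0.0147 (without library 5 of control 6 h) to 0.0719. The contigs changed, higher or lower in control were chosen on the same control libraries, which can in part set these values. The set's share differed by 3.64 percentage points (3.10 to 4.46).

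Of 54 contigs 45 were called, and 4 lost the call in some alternative: AT5G22140, UMAMIT25, H2B and TC_48387. Signs turned in uncalled contigs: ERF020 was -0.48 with reference contigs, -0.15 with the block and -0.021 in one fit; UGT73B5 TC_17628 was 0.014 by library size and 0.013 with the set removed; ERF018 was -0.11 with reference contigs. With a library left out tolB TC_42901 ran from -0.60 to 0.092 (positive without control 6 h library 1), ERF020 from -0.45 to 0.27, UGT73B5 TC_17628 from -0.62 to 0.16 and ERF018 from -0.061 to 1.16 (negative without treated library 3). Of 30 off the axis 15 lost the call, none reversed. With 5 libraries a group, depth limits contigs near 0 CPM in control 6 h, where 1 count is about 0.03 CPM.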

Other observations

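Library 5 had the lowest position of its group on the control axis in MyA 12 h (0.861), in control 12 h (0.883), in MyA 6 h (-0.0110) and in dry seed (0.248). In control 6 h library 4 was lowest (0.0187), and MyA 18 h library 5 was left out.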
